A study of Mus musculus with 8 samples.

Results

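The genes for the proteins of the cytosolic ribosome were followed in neural progenitor (NP) cells made from mouse embryonic stem (ES) cells with and without *Sox3*, a gene on the X chromosome for a transcription factor of the SOXB1 group. Members were the transcript clusters, each a set of array probes summarised to 1 value, that carried exactly 1 gene symbol and whose symbol was that of a large subunit protein (*Rpl*), a small subunit protein (*Rps*), an acidic stalk protein (*Rplp0*, *Rplp1* or *Rplp2*) or *Rpsa*. Symbols marked as pseudogenes were left out, and no measured value was used in the choice. This gave 215 transcript clusters of 59 genes, among 23410 transcript clusters with a symbol. Of the 215, 131 belonged to 37 genes of the large subunit and 84 to 22 genes of the small subunit. No filter on low values was applied, and all 215 were tested.

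The control group was an R1 ES cell line with a conditional *Sox3* allele, whose *Sox3* is present. The *Sox3* null group was an R1 line in which a GFP reporter had been knocked into the *Sox3* locus. Both had been kept as ES cells, on gelatine by the labels and on irradiated feeder cells by the study's methods, and were then differentiated as monolayers in the serum-free medium N2B27. RNA was taken at Day 4 from 4 cultures of each genotype, 2 in each of 2 independent differentiation series, here called batches. Cultures 1 and 2 of each genotype made up batch 1, and cultures 3 and 4 made up batch 2. Cells were not sorted, and how many ES cell clones stood behind each genotype is stated in none of the sources read. In such bulk RNA, fewer cells of a type and less RNA per cell cannot be told apart.

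A cytosolic ribosome holds 1 copy of nearly every ribosomal protein, so cells make these proteins in matched amounts. Their mRNAs are among the most abundant in a growing cell, and most begin with a terminal oligopyrimidine (TOP) tract, a C followed by an unbroken run of C and T, through which mTORC1 controls their translation. That control acts largely on translation, which an array of total RNA does not measure. Loss of 1 copy of a ribosomal protein gene is known to stabilise p53, since free RPL5 and RPL11 bind MDM2. The same genes have left many near-identical processed copies in the mouse genome, so array probes for them can read several loci.

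That last point shows in the array itself. Only 20 of the 59 genes had a single transcript cluster, 39 had several, and *Rps12* had 14. Of the 215 transcript clusters, 19 shared all 8 values with another member, which left 203 distinct sets of values. A further 233 transcript clusters named a ribosomal protein gene together with another gene and were not members. Because of this, *Rpl3*, *Rpl11*, *Rpl13a*, *Rpl39*, *Rps27* and *Rps27a* had no transcript cluster of their own. Which cluster of a gene lies at the gene's own locus was not analysed here, and signals of different transcript clusters were not tested against each other.

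*Sox3* itself was lower in the null cultures, at a mean log2 signal of 8.50 ± 0.14 (SD, n = 4), than in the controls, at 9.81 ± 0.09 (SD, n = 4). All 8 cultures carried neural progenitor markers, with mean log2 signals of 12.5 for *Sox2*, 11.1 for *Pax6* and 9.23 for *Zic1*. Pluripotency markers gave signal too, from 7.45 for *Klf4* to 11.5 for *Dppa5a*, with *Nanog* at 10.5. What share of the cells was of either type was not analysed. Of the 6 progenitor markers, only *Nes* (0.49 on the log2 scale) and *Zic1* (0.36) passed between genotypes, both higher in the null cultures. Of the 6 neuronal markers only *Map2* passed, higher by 0.47. Only *Nanog* passed among the 6 pluripotency markers, at -0.37, and only *Thy1* among the 8 fibroblast markers, at -0.51. None of the 6 mesoderm and endoderm markers passed. By sign, all 6 progenitor, 4 neuronal, 2 pluripotency and 5 fibroblast markers were higher in the null cultures, and no mesoderm or endoderm marker was. The shares of all transcript clusters that passed between genotypes were 1.15% higher and 0.393% lower. Between batches, 3 of 6 progenitor markers, 3 of 8 fibroblast markers and 2 of 6 mesoderm and endoderm markers passed as lower in batch 2. Over all transcript clusters 9.35% passed as lower and 10.9% as higher. By sign alone, 4, 8 and 6 of these markers were lower in batch 2. Of the pluripotency markers *Dppa5a* was higher there by 0.52 and *Esrrb* and *Klf4* were lower, at -0.28 and -0.27, and of the neuronal markers *Dcx* was higher by 0.28 and *Stmn2* lower, at -0.27. Whether these shifts have a part in the ribosomal protein values below was not tested.

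Whether loss of *Sox3* altered ribosomal protein transcripts was asked first. No member passed the test in limma at an adjusted p of 0.05 or less, where 362 of all 23410 transcript clusters (1.55%) passed, 1.15% higher and 0.393% lower in the null cultures. At an unadjusted p under 0.05 there was 1 member, or 0.465%, against 13.1% of all transcript clusters. A plain linear model, which uses each cluster's own variance, had 4 members at an unadjusted p under 0.05 and none after adjustment. The median difference, *Sox3* null minus control, was -0.0012 on the log2 scale over the members and -0.00011 over all transcript clusters. Of the 215 members, 105 (48.8%) were higher in the null cultures, as were 50% of all transcript clusters. Without null culture 3 the share of members was 25.6%, with 6 at an unadjusted p under 0.05, and without null culture 4 it was 74%, with 3. Without control culture 3 it was 63.7%, with 2.

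The intervals around these differences were narrow, as were those of most transcript clusters. The 95% confidence interval of every one of the 215 members lay within a 1.4-fold change in either direction. So did that of 22971 of all 23410 transcript clusters. The lowest limit was 1.29-fold lower, for *Rpl10l*, and the highest was 1.32-fold higher, for *Rpl34*. The median half-width was 0.127 on the log2 scale over the members and 0.134 over all transcript clusters. The quartiles of the member differences were -0.03 and 0.03. Large subunit members had a median difference of -0.01 and small subunit members one of 0.01. Within batch 1 alone the member median was -0.0048, and within batch 2 alone it was 0.0004.

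**Figure D1:**
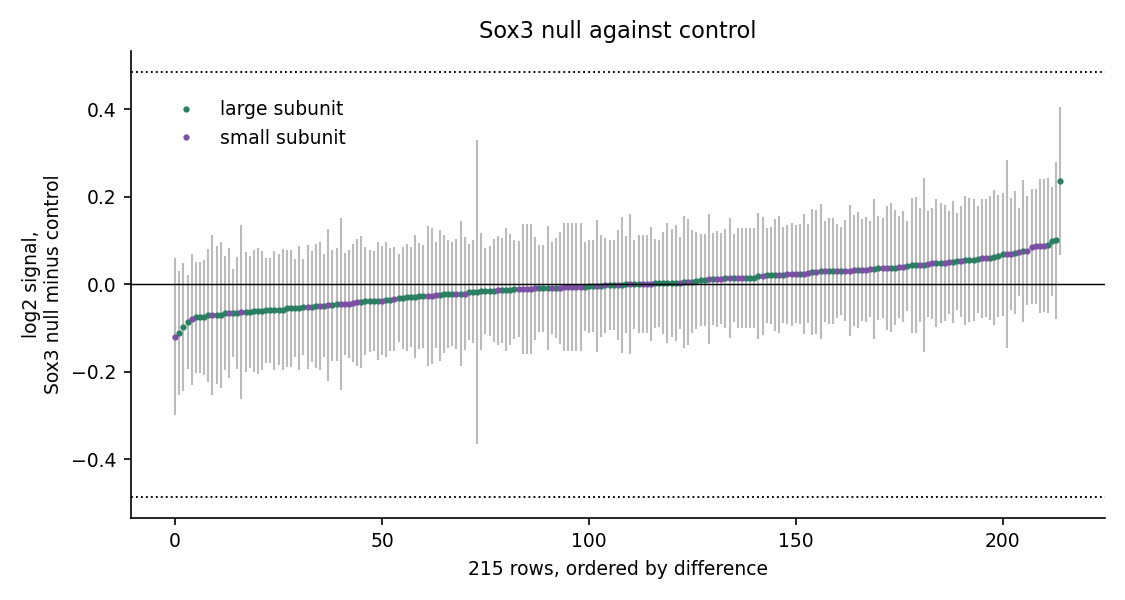
Difference in log2 signal between *Sox3* null and control cultures for the 215 ribosomal protein transcript clusters, in order of size. Points are fitted differences, coloured by subunit, with 95% confidence intervals in grey. No interval reaches the 1.4-fold change shown by dotted lines. The point at the far right is *Rpl34*, at 0.24.

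*Rpl34*, a large subunit protein gene with a single transcript cluster, was the member at an unadjusted p under 0.05. Its log2 signals were 9.67, 9.64, 9.84 and 9.66 in control cultures 1 to 4 and 9.79, 9.70, 10.24 and 10.03 in null cultures 1 to 4. The 2 null cultures of batch 2 were above every other culture, while the null cultures of batch 1 lay among the controls, so the genotypes overlapped. The difference was 0.24 ± 0.08 (SE), with an adjusted p of 0.202 in limma. It came to 0.09 within batch 1 and 0.38 within batch 2.

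No member had all 4 null cultures above the 4 controls, where 2.41% of all transcript clusters did. In either direction 4.6% of all did not overlap between genotypes. In 2 transcript clusters the 4 null cultures all lay below the 4 controls, or 0.93% of members against 2.19% of all transcript clusters. The first was *Rplp1*, a protein of the acidic stalk that recruits elongation factors, at 13.97, 13.91, 13.92 and 13.94 in control cultures 1 to 4 and 13.82, 13.90, 13.88 and 13.79 in the null cultures. Its difference was -0.09 ± 0.05 (SE), with an adjusted p of 0.501 in limma. The other was *Rpl22*, whose product is not needed for the ribosome to work in most tissues but is required by developing T cells. It read 10.80, 10.81, 10.84 and 10.90 in the controls and 10.78, 10.74, 10.80 and 10.77 in the null cultures. Here the difference was -0.07 ± 0.05 (SE), with an adjusted p of 0.612 in limma. Neither separation passed the test.

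The other members with the smallest p did not pass either. On the side of higher null signal they were *Rpl30* at 0.10, *Rps7* at 0.09 and 2 clusters of *Rps25* at 0.07 and 0.09, with adjusted p-values from 0.516 to 0.604 in limma. On the opposite side were *Rpl13* at -0.11, *Rps15a* at -0.12 and the second cluster of *Rplp1* at -0.10, with adjusted p-values from 0.521 to 0.598 in limma. The clusters of *Rpl13* and those of *Rps25* gave like values within each gene. All 9 clusters of *Rpl13* lay between -0.11 and -0.06, and all 6 of *Rps25* between 0.06 and 0.09. In some other genes the clusters differed in sign, as in *Rps21*, from -0.05 to 0.07, and *Rpl7a*, from -0.07 to 0.04. Clusters of 1 gene can share probes and are not independent measurements.

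Ribosomal protein genes known for other roles or for disease did not pass between genotypes either. *Rpl5*, of the MDM2-binding particle, had differences from 0.03 to 0.04 over 5 transcript clusters. *Rps19*, mutated in Diamond-Blackfan anaemia, was at -0.07 with an adjusted p of 0.797 in limma. *Rps14*, lost in the 5q- syndrome, had differences of 0.00 and 0.01. *Rpl38*, known for its part in patterning the mouse axial skeleton, ranged from -0.03 to -0.01 over 4 clusters, and *Rpl24*, the gene of the Belly spot and tail mutant, from 0.05 to 0.09 over 3. On the X chromosome, which also carries *Sox3*, *Rps4x* differed by 0.02 to 0.04 over 5 clusters and *Rpl10* by 0.00 to 0.02 over 6.

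Nor did the genotype difference pass a test of change between batches in any member. The genotype by batch term passed for 0 of the 215 members and for 0 of all 23410 transcript clusters (0%). At an unadjusted p under 0.05 there were 0 members and 3.05% of all transcript clusters. The plain linear model also passed none. *Rpl34* had the smallest p, with a term of 0.29 ± 0.13 (SE), an unadjusted p of 0.0571 and an adjusted p of 1 in limma. It was followed by *Rps15a* at -0.22 and *Rpl23* at -0.13.

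The second question the design allows is how the same transcripts differed between the 2 differentiation batches. Each batch is a differentiation series of its own, so the tests below measure spread between cultures within a series, not between series. Ribosomal protein signals were higher in batch 2 for 190 of 215 transcript clusters (88.4%), against 50.9% of all transcript clusters, but by little. The median difference, batch 2 minus batch 1, was 0.089 on the log2 scale over the members and 0.003 over all transcript clusters. Differences ran from -0.17 for *Rpl30* to 0.31 for *Rps21*, with quartiles of 0.03 and 0.13. Of the 215, 7 (3.26%) passed the test in limma, all higher in batch 2, where 4736 of all transcript clusters (20.2%) passed, 10.9% higher and 9.35% lower. None reached a 1.4-fold change as well, which 2.49% of all transcript clusters did. At an unadjusted p under 0.05 there were 47 members (21.9%) against 31.5% of all transcript clusters, and 46 of the 47 were higher in batch 2 (21.4%, against 16.7% of all).

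The direction did not depend on which genotype was read, though no member passed in either genotype alone. Of all transcript clusters 5.49% passed in the controls alone and 6.87% in the null cultures alone. In the controls alone the median difference was 0.077, with 191 members higher in batch 2, and in the null cultures alone it was 0.093, with 179 higher. The large subunit median was 0.096 and the small subunit median 0.083. With 1 transcript cluster a gene, the brightest, the median was 0.064, and 46 of 59 genes were higher. Quantile normalization of the deposited values lowered the median over the 215 members to 0.027 and the share higher to 71.2%. It passed 8 members, 3 higher and 5 lower, and 21.2% of all transcript clusters. Centring each array on its median raised the median to 0.119. It passed 24 members, all higher, and 21.8% of all transcript clusters.

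**Figure D2:**
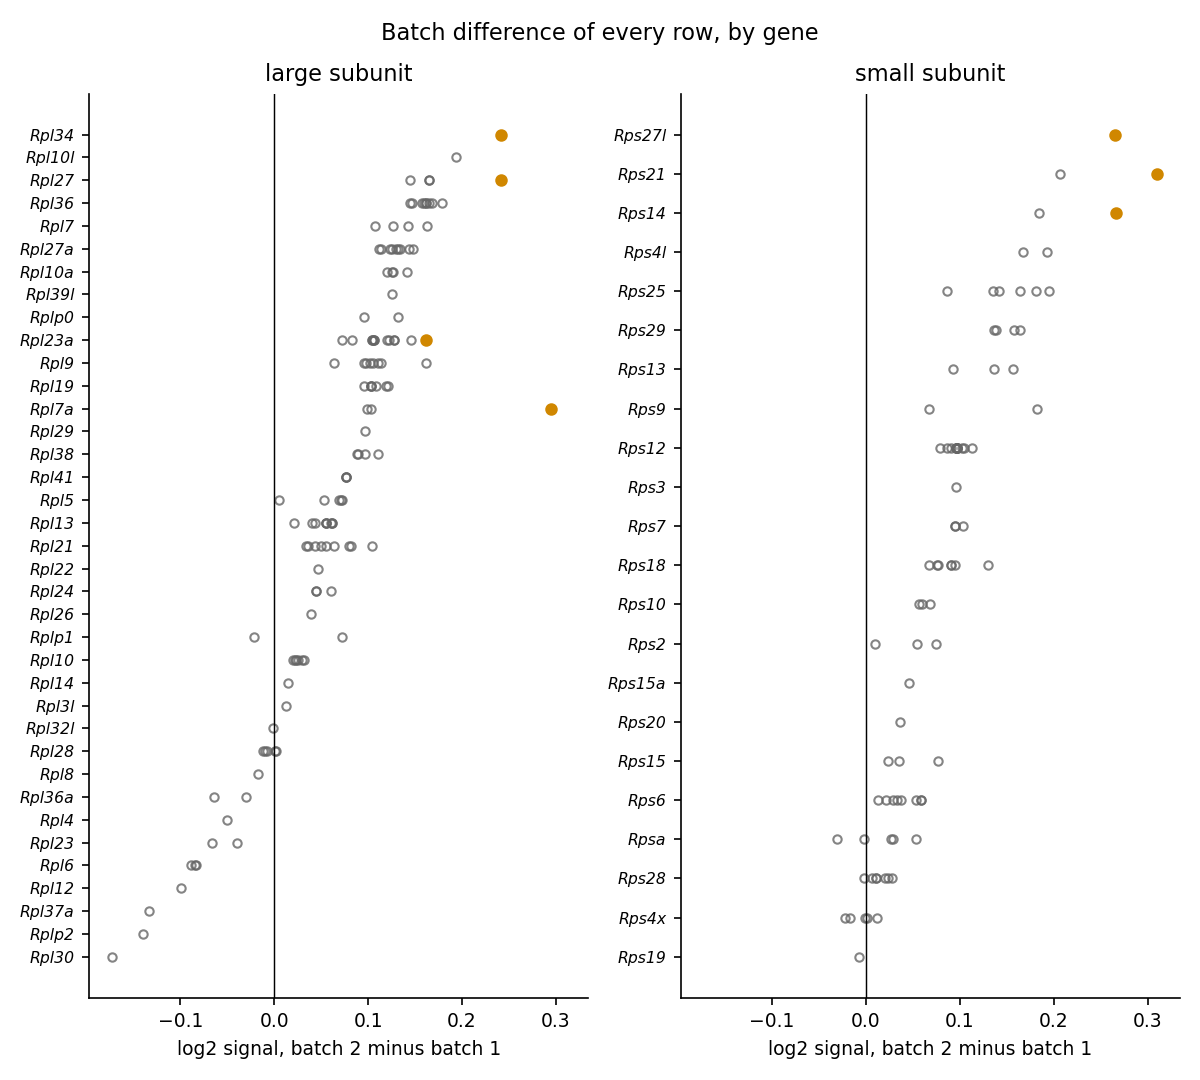
Difference in log2 signal between batch 2 and batch 1 for each ribosomal protein transcript cluster, 1 line a gene, with large subunit genes at left and small subunit genes at right. Open circles did not pass the test and filled circles mark the 7 that did. In 43 genes all clusters lie above 0, in 11 all lie below 0, and in 5 they fall on both sides.

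*Rps27l* had the smallest p of all members. It encodes a close relative of the small subunit protein RPS27 and is a known p53 target gene. Its log2 signals were 12.50 and 12.54 in the controls and 12.51 and 12.37 in the null cultures of batch 1, then 12.83 and 12.67 in the controls and 12.75 and 12.74 in the null cultures of batch 2. Every culture of batch 2 was above every culture of batch 1. It rose by 0.27 ± 0.06 (SE), with an adjusted p of 0.00716 in limma, and it was the member that passed with each of the 8 arrays left out in turn. The other 6 that passed all lost their call without control culture 2, and also without null culture 2. Its 4 cultures of each genotype overlapped.

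*Rps14*, a small subunit protein gene, rose by 0.27 ± 0.07 (SE), with an adjusted p of 0.0242 in limma, in 1 of its 2 transcript clusters. The signals were 12.14, 12.06, 12.02 and 12.04 in batch 1, controls first, and 12.29, 12.31, 12.54 and 12.20 in batch 2. Null culture 3 was the highest and the batches did not overlap. The second cluster of *Rps14* was also higher in every culture of batch 2, by 0.18, with an adjusted p of 0.0803 in limma.

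*Rpl7a*, a large subunit protein gene, rose by 0.29 ± 0.08 (SE) in 1 of its 3 clusters, with an adjusted p of 0.0188 in limma. Its signals were 11.49 and 11.25 in the controls and 11.36 and 11.19 in the null cultures of batch 1, and 11.71 and 11.56 in the controls and 11.71 and 11.49 in the null cultures of batch 2. Culture 4 of the null line lay just below the highest value of batch 1, so the batches overlapped. Its other 2 clusters were at 0.10 each and did not pass.

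*Rpl27*, also of the large subunit, rose by 0.24 ± 0.07 (SE), with an adjusted p of 0.0334 in limma, in 1 of 4 clusters. The values in batch 1 were 11.05 and 11.06 in the controls and 11.12 and 11.05 in the null cultures, and those in batch 2 were 11.36 and 11.20 in the controls and 11.50 and 11.19 in the null cultures. No value of batch 2 fell among those of batch 1. The other 3 clusters, 2 of them with identical values, were separated by batch too, at 0.14 and 0.16, and did not pass.

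*Rpl23a*, near the exit of the tunnel through which the new protein leaves, was the smallest of the changes that passed, and rose by 0.16 ± 0.05 (SE), with an adjusted p of 0.0364 in limma. The 4 cultures of batch 2 read 12.40, 12.38, 12.43 and 12.40, controls first, above the 12.29, 12.23, 12.27 and 12.18 of batch 1. Its 12 further clusters were higher in batch 2 as well, by 0.07 to 0.15, and did not pass.

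*Rps21*, of the small subunit, had the widest difference of all members and, among the 7 that passed, the widest standard error. Its signals were 9.06, 9.19, 9.11 and 9.19 in batch 1 and 9.32, 9.45, 9.76 and 9.24 in batch 2, controls first. The lowest of batch 2, null culture 4, was only just above batch 1. It rose by 0.31 ± 0.10 (SE), with an adjusted p of 0.0456 in limma. *Rpl34*, whose signals are given above, rose by 0.24 ± 0.08 (SE), with an adjusted p of 0.0474 in limma. There the batches overlapped, since control culture 4 was at 9.66, and the difference was 0.10 in the controls and 0.39 in the null cultures.

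**Figure D3:**
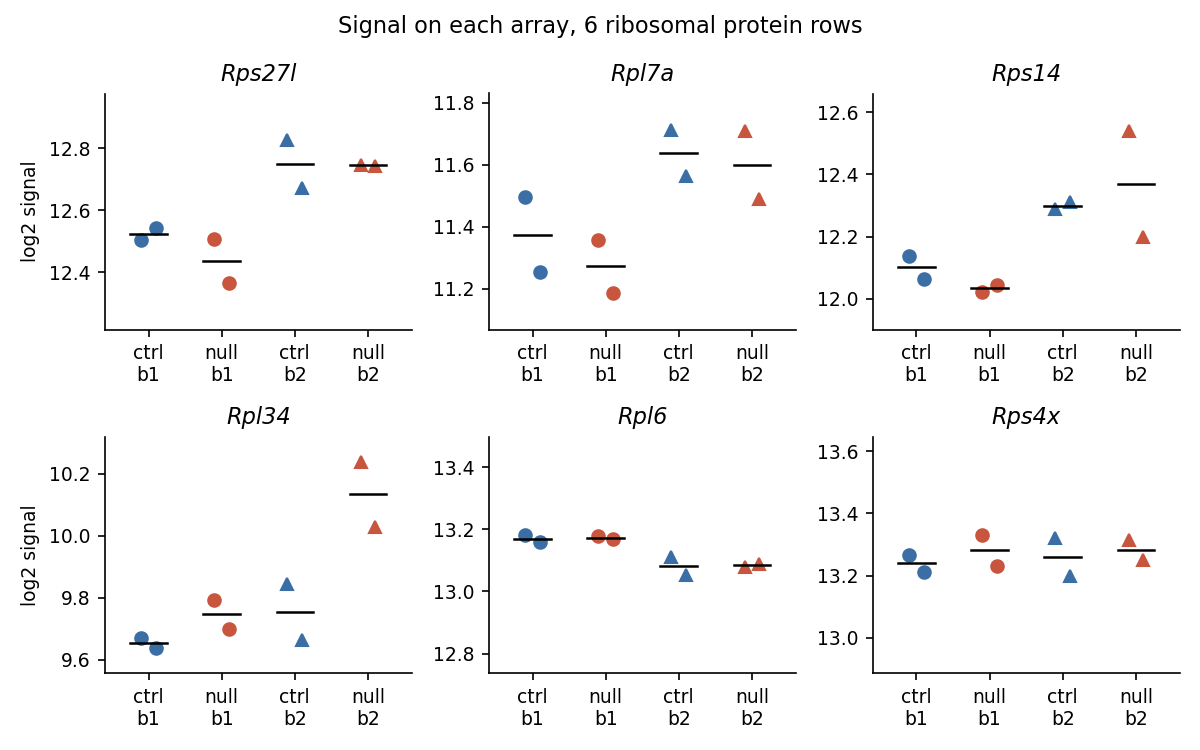
Log2 signal of 6 ribosomal protein transcript clusters on each of the 8 arrays, controls in blue and *Sox3* null in red, batch 1 (b1) as circles and batch 2 (b2) as triangles. Lines are means of 2 cultures, and every panel spans the same range of log2 signal. *Rps27l*, *Rpl7a*, *Rps14* and *Rpl34* passed the batch test, and *Rpl6* and *Rps4x* did not.

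The members that ran the other way were few, and none passed. All 3 transcript clusters of *Rpl6*, a large subunit protein gene, were lower in every culture of batch 2 and were the only members separated in that direction, 1.4% against 9.34% of all transcript clusters. In one of them the values were 13.18, 13.16, 13.18 and 13.17 in batch 1 and 13.11, 13.05, 13.08 and 13.09 in batch 2, controls first. The difference was -0.09 ± 0.05 (SE), with an adjusted p of 0.218 in limma. After quantile normalization all 3 passed, at about -0.15. In the direction of the majority, 25 members (11.6%) were separated between batches, close to the 11.7% of all transcript clusters. In both directions together 28 members (13%) were separated, and 21% of all.

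*Rpl30*, a large subunit protein gene, had the lowest difference, -0.17 ± 0.06 (SE), with an adjusted p of 0.0535 in limma. It read 10.50, 10.62, 10.67 and 10.74 in batch 1 and 10.43, 10.45, 10.55 and 10.41 in batch 2, controls first. Null culture 3 of batch 2 was above control culture 1, so the batches overlapped. *Rplp2*, the partner of RPLP1 in the stalk, was at -0.14 and *Rpl37a* at -0.13, neither of which passed. The mean log2 signal of *Rplp2* was low for a member, at 7.66, where the member median was 12.7. *Rplp0*, the base of the stalk and a common reference gene in quantitative PCR, was at 0.10 and 0.13 and did not pass either.

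Some genes stayed close to 0 in every cluster. *Rps6*, whose product is phosphorylated by S6 kinase, ran from 0.01 to 0.06 over 8 clusters. *Rps4x* lay between -0.02 and 0.01 over 5 clusters, *Rpl10* between 0.02 and 0.03 over 6, and *Rpl28* between -0.01 and 0.00 over 5. *Rps19* was at -0.01, and *Rpsa*, known both as a small subunit protein and as the laminin receptor, ran from -0.03 to 0.05 over 5. At the other end, all 9 clusters of *Rpl36* were between 0.14 and 0.18, with adjusted p-values from 0.0524 to 0.119 in limma. *Rpl5* ran from 0.00 to 0.07, *Rpl38* from 0.09 to 0.11, and *Rpl24* from 0.04 to 0.06.

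Relatives of ribosomal protein genes with restricted expression were read as well. *Rpl3l*, the striated muscle relative of *Rpl3*, was at 0.01 between batches and 0.00 between genotypes. *Rpl39l*, known from male germ cells, was at 0.13 between batches with an adjusted p of 0.163 in limma, and *Rpl10l*, which serves male meiosis, at 0.19 with an adjusted p of 0.463 in limma. *Rps4l*, annotated as a transcribed pseudogene, had 2 clusters at 0.19 and 0.17, separated by batch, with adjusted p-values of 0.0622 and 0.0643 in limma. None passed in either comparison. Signals of 3 of these relatives were low, with log2 means of 5.542 for *Rpl3l*, 5.498 for *Rpl39l* and 7.626 for *Rpl10l*. The median was 12.7 over the members and 7.67 over all transcript clusters. How well such low signals follow these mRNAs was not tested, so small differences there do not show unchanged expression.

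Beside the shift between batches there were shifts between cultures of the same genotype and batch, in which most members moved together. Null culture 3 was above null culture 4 in 209 of 215 transcript clusters (97.2%), with a median difference of 0.17 on the log2 scale, or 1.12-fold. Over all transcript clusters the share was 50.4% and the median 0.001. Control culture 3 was above control culture 4 in 172 members, by a median of 0.08. In batch 1 the pairs lay closer, with null culture 1 above null culture 2 in 166 members, by 0.04, and control culture 1 above control culture 2 in 154, by 0.03. So the difference between the 2 null cultures of batch 2 was larger than the median difference between the batches.

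How these pairs looked depended on scaling. After quantile normalization null culture 3 was above null culture 4 in 183 members, by a median of 0.10, and null culture 1 stood above null culture 2 in 110. With arrays centred on their medians, those counts were 212 and 199. The deposited array medians over all transcript clusters ran from 7.63 to 7.70, and the member medians from 12.66 to 12.93, with null culture 3 the highest and null culture 2 the lowest.

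**Figure D4:**
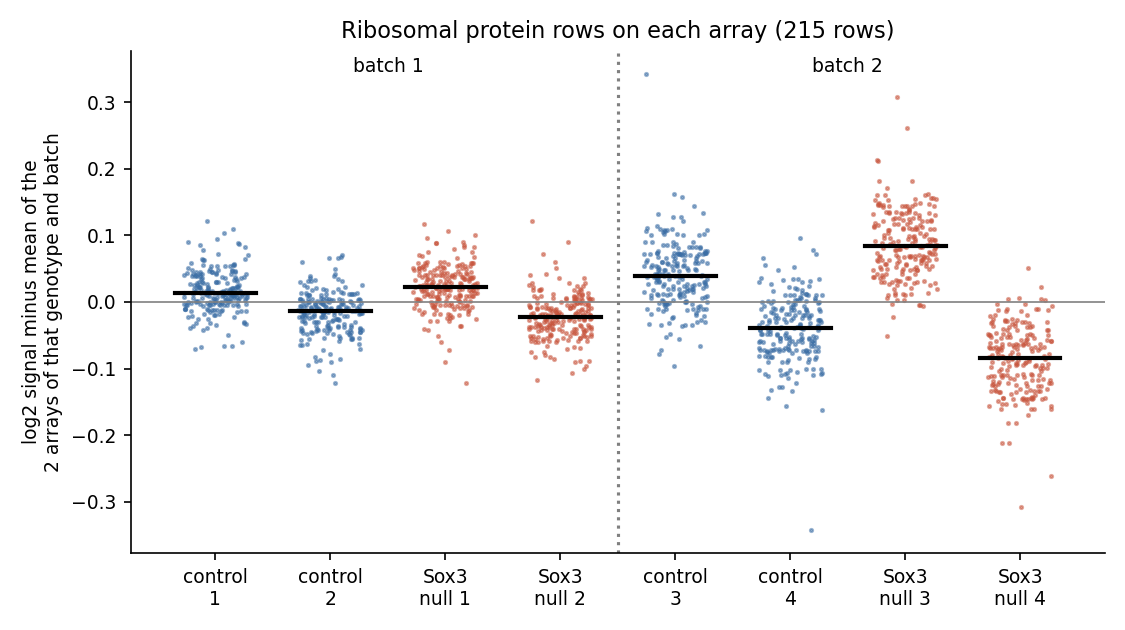
Log2 signal of each of the 215 ribosomal protein transcript clusters on each array, minus the mean of the 2 arrays of the same genotype and batch, with controls in blue and *Sox3* null in red. Points are transcript clusters and black lines their medians. The 2 arrays of a pair mirror each other by construction, and the widest gap is between null 3 and null 4, whose medians lie 0.17 apart.

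The common movement took up most of the spread of the members within groups. Subtracting from each array the median deviation of the members removed 58.2% of their sum of squares within genotype and batch. The same step over all transcript clusters removed 2.80%. Their median deviations lay between -0.021 and 0.021, so the step could remove little there. The 2 shares do not tell whether common movement is particular to the members. Of the members' total sum of squares around their means, genotype held 6.71%, batch 36.3% and the remainder 56.9%. Over all transcript clusters these shares were 16.4%, 46.9% and 36.7%. The median SD within genotype and batch was 0.083 for the members and 0.087 for all. Leaving out null culture 4 raised the number of members that passed between batches from 7 to 18, and leaving out null culture 3 lowered it to 2. Of all transcript clusters 18.7% and 15.4% passed in these fits.

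The starts of these genes were read for the sequence features that they are known to share. Promoter windows of RefSeq on GRCm38.p6, 250 bases before to 50 after each annotated start, were found for 47 of the 59 genes, in 56 windows of all 32851. The string CTTTC, common in TOP tracts and searched on the transcribed strand from 20 bases before to 50 after the start, was in 21 of the 56 (37.5%) and in 8.97% of all windows. CCGGAAG, bound by factors of the ETS family such as GABPA and searched over the whole window on both strands, was in 19 (33.9%) and in 8.86% of all. AAGATGGC, the core bound by YY1, searched the same way, was in 2 (3.57%) and in 2.75% of all. None of these strings is part of another. A match is a description of the letters and not a site of binding.

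For a chosen set of members, 30 bases around the annotated start are given 5′ to 3′ on the transcribed strand. Of these, 15 lie before the start and 15 from it on. *Rps14* and *Rpl23a*, which also passed between batches, are not in the set. Capitals mark the longest unbroken run of C and T of at least 5 bases. The first 8 lines belong to 5 genes that rose in batch 2, of which *Rps27l*, *Rps21* and *Rpl34* have 2 annotated starts each, then comes *Rpl6*, lower in every culture of batch 2, and last are 3 genes with differences close to 0.
Rps27l, chr9:66946071-66946100, plus strand: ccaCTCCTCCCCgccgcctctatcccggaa
Rps27l, chr9:66946398-66946427, plus strand: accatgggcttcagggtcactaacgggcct
Rpl7a, chr2:26910792-26910821, plus strand: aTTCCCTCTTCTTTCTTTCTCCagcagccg
Rpl27, chr11:101442230-101442259, plus strand: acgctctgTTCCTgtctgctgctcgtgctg
Rps21, chr2:180257364-180257393, plus strand: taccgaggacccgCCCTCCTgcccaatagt
Rps21, chr2:180257434-180257463, plus strand: ggacaagtgagcaggtaggcctcggtgcgg
Rpl34, chr3:130730384-130730413, minus strand: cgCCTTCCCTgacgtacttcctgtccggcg
Rpl34, chr3:130730323-130730352, minus strand: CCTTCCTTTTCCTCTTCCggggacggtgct
Rpl6, chr5:121204486-121204515, plus strand: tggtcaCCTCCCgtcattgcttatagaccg
Rps6, chr4:86857353-86857382, minus strand: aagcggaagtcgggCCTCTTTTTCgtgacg
Rpl28, chr7:4792950-4792979, plus strand: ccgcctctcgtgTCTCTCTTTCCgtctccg
Rps4x, chrX:102189377-102189406, minus strand: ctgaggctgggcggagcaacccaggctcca

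The run was 21 bases long in *Rpl7a* and 18 at the second start of *Rpl34*, and 5 in *Rpl27*. The second starts of *Rps27l* and *Rps21* had none. Among the genes close to 0, *Rpl28* had a run of 11 and *Rps6* one of 10, and *Rps4x* had none in this window. Runs of more than 5 bases were thus present both in genes that rose between batches and in genes close to 0. Every run began before the annotated start, from position -15 at the second start of *Rpl34* to -1 in *Rps6*. Some also ended before it, as in *Rpl27* and *Rpl6*. Which of the runs are TOP tracts was not analysed. An annotated start can lie some bases away from the start used in these cells, which was not measured.

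Several ribosomal protein genes carry small nucleolar RNAs (snoRNAs) in their introns, which are cut from the same primary transcript and guide the chemical modification of ribosomal RNA. There were 13 transcript clusters of such snoRNAs within 9 member genes, and none passed between genotypes, with 1.55% of all transcript clusters passing. Between batches 3 passed as higher and 5 as lower in batch 2, against 10.9% and 9.35% of all transcript clusters. By sign 4 were higher and 9 lower.

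The 8 that passed had wider differences than any cluster of the genes that hold them. *Snord16a*, in *Rpl4*, fell by 0.71 ± 0.09 (SE), with an adjusted p of 4.05e-04 in limma, while *Rpl4* was at -0.05 and did not pass. Its log2 signals were 10.60, 10.83, 10.61 and 10.94 in batch 1 and 10.06, 10.21, 9.92 and 9.95 in batch 2, controls first, with no overlap. *Snord15a*, in *Rps3*, fell by 0.66 ± 0.07 (SE), with an adjusted p of 1.96e-04 in limma, and *Rps3* was at 0.10 and did not pass. Its signals were 8.91, 8.86, 8.84 and 8.96 in batch 1 and 8.18, 8.30, 8.38 and 8.05 in batch 2, again without overlap.

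Others rose. *Snora52*, in *Rplp2*, rose by 0.34 ± 0.06 (SE), with an adjusted p of 0.00196 in limma, and *Rplp2* was at -0.14. It read 13.41, 13.42, 13.28 and 13.30 in batch 1 and 13.64, 13.70, 13.79 and 13.65 in batch 2, controls first. The batches did not overlap. The cluster of *Rplp2* had a mean log2 signal of only 7.66, where the median was 12.7 over the members and 7.67 over all transcript clusters. How well so low a signal follows the *Rplp2* mRNA was not tested. The 2 clusters of *Snora3*, in *Rpl27a*, rose by 0.48 each, and those of *Rpl27a* were between 0.11 and 0.15. *Snora62* in *Rpsa* fell by 0.37, *Snord15b* in *Rps3* fell by 0.30 and *Snora70* in *Rpl10* fell by 0.25. Whether a snoRNA and its gene differed from each other was not tested, and their probes can respond to signal on unlike scales.

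**Figure D5:**
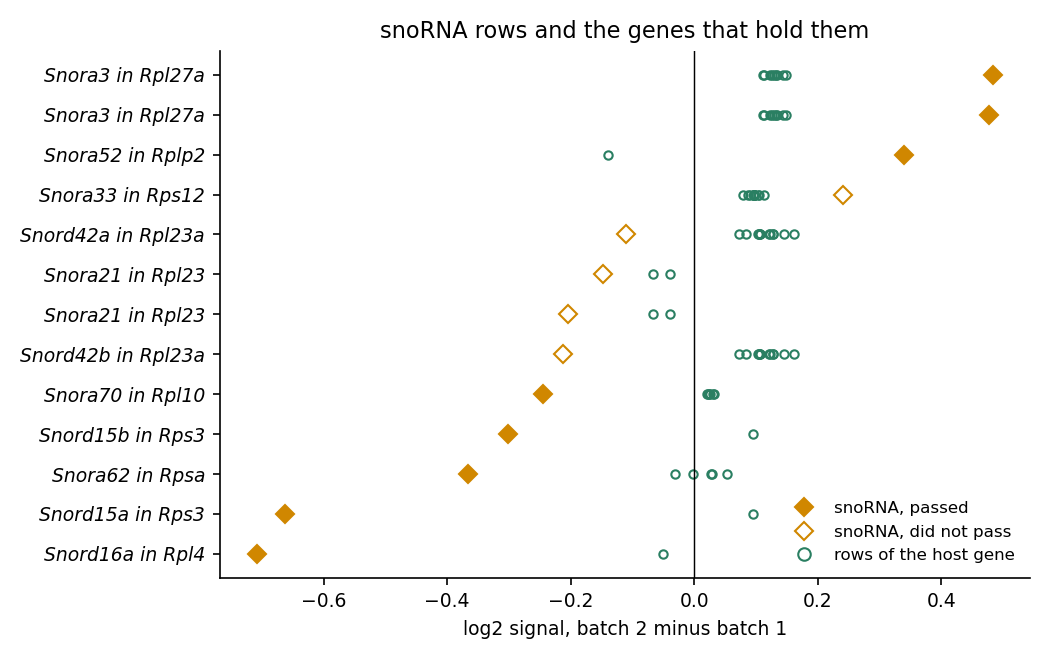
Difference in log2 signal between batch 2 and batch 1 for 13 transcript clusters of snoRNAs (diamonds, filled where they passed the test) and for the clusters of the ribosomal protein gene that holds each (circles). The snoRNA values run from -0.71 to 0.48, and those of the genes shown lie between -0.14 and 0.16.

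Other genes of protein synthesis were read beside the members. Mitochondrial ribosomal proteins, which form the separate ribosome of that organelle, had 85 transcript clusters with a median batch difference of 0.198. Of these, 44 passed as higher in batch 2 and none as lower, and by sign 80 were higher and 5 lower. For this list and those that follow, the shares of all transcript clusters that passed were 10.9% higher and 9.35% lower, 20.2% together. Among them *Mrps33* rose by 0.43 and 0.45 in its 2 clusters, *Mrpl20* by 0.41 and *Mrps22* by 0.35. Of 58 clusters of translation initiation factors 5 passed as higher and 4 as lower, and by sign 39 were higher and 19 lower. Among those that passed, *Eif3i* was higher by 0.39 and *Eif3a* lower, at -0.22. Of 12 elongation and termination factors *Eef1d* rose by 0.28 and *Eef2*, which moves the ribosome along the mRNA, fell by 0.18. These were also the 2 that passed among 23 clusters of other TOP mRNAs.

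Of 65 clusters for ribosome assembly 4 passed as higher and 5 as lower, and by sign 38 were higher and 27 lower. Among those that passed were *Tsr1*, of small subunit maturation, at -0.51 and *Nop10*, of the box H/ACA snoRNPs, at 0.28. Of 24 clusters for RNA polymerase I and its factors 5 passed as higher and 2 as lower, and by sign 15 were higher and 9 lower. Of 21 clusters for mTORC1 and the control of ribosomal protein genes, 10 passed as lower and none as higher, and by sign 15 were lower and 6 higher. There *Myc* fell by 0.73, *Mycn* by 0.49 and *Mdm2* by 0.39, in the batch in which 190 of 215 ribosomal protein clusters were higher by sign. Between genotypes, the Y-linked *Eif2s3y* of the initiation factors, at 0.50, was the 1 transcript cluster of these 7 lists that passed. The clusters that named a ribosomal protein gene with another gene had a median batch difference of 0.053, with 207 of 233 higher by sign. Of these 233, 3 passed as higher and 2 as lower. The other lists left out by the choice of members were 3 clusters of related genes, among them *Fau*, and 2 named as pseudogenes, of which none passed.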

How the data were processed

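RNA of 8 cultures was hybridised to Affymetrix Mouse Gene 1.0 ST chips, 1 a culture. The values deposited by the authors are log2 signals per transcript cluster. Partek is the tool in the submitters' processing notes. How signals were normalized and summarised, and on which build, was not given in the sources used here. Columns left out as those of other samples numbered 0. Symbols were those of the platform annotation, brought up to date with RefSeq's gene table for GRCm38.p6, in which all 59 member genes matched. The table held 35556 rows, 21789 with 1 symbol, 1621 with several and 12146 without one here.

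A linear model with genotype and batch as terms, after the study's 2-way ANOVA, was fitted to the 23410 rows that had a symbol (limma 3.58.1, R 4.3.3), with Benjamini-Hochberg adjustment over all of them. A genotype by batch term was fitted separately. Passing means an adjusted p of 0.05 or less. The script was tested on simulated data. The study calls the cultures biological replicates, and p-values measure the spread between them. The batches are the 2 differentiation series themselves. The p-values between batches therefore measure spread between cultures within a series, and not between series. The number of arrays limits the precision. No 2 arrays were identical.

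Members and lists were chosen with earlier results of these data known. The rule names the 5 members with the smallest p in each direction of both comparisons, 3 for the genotype by batch term, up to 3 of each other list, and a set list of ribosomal protein genes. *Rps21*, *Rpl28*, *Rpl36*, *Rps4l*, the fourth and later snoRNAs and *Eif2s3y* were named after their values were seen. Alternatives were another set of rows, other normalizations, variance models and terms, and fewer arrays.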

Additional observations from a re-analysis of the deposited data

Results flagged for a closer look

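In 68 groups of 4 arrays, the 4 cultures of 1 genotype for each named transcript cluster, 1 array stood far from the other 3 by Dixon's test in 5. By chance about 5% of such groups would be singled out. Control culture 3 was the high one in 4 of them. It read 9.84 for *Rpl34* against 9.64 to 9.67 in the other controls, 13.46 for *Rps7* against 13.24 to 13.25, 8.16 for *Rpl10l* against 7.44 to 7.48, and 11.71 for *Rpl24* against 11.50 to 11.53. Null culture 3 was the high one for a cluster of *Rps14*, at 13.09 against 12.71 to 12.77 in the other null cultures.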

How the results depend on the processing

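No member passed between genotypes or for the genotype by batch term under any alternative that was run, and the genotype median stayed between -0.03 and 0.03 with each array left out in turn, lowest without null culture 3 and highest without null culture 4. Between batches 7 members passed. The count was 1 when all rows of the table were tested and 2 with the brightest row of a gene, where 11.6% and 21.6% of all rows passed. With the share of all rows in brackets, it was 0 with a fold of 1.4 or more (2.49%). It was 0 in control arrays alone (5.49%) and 0 in *Sox3* null arrays alone (6.87%). It was 12 without the dimmest 25% of rows (28.4%), 24 with arrays centred on their median (21.8%) and 37 with limma's trend (21.4%). The first 5 test other rows, 1 row a gene, a further condition or fewer arrays, and for the rest the cause was not tested. Leaving out 1 array gave 1 to 18, with 1 without control culture 2 or null culture 2, 2 without null culture 1, control culture 3 or null culture 3, and 18 without null culture 4. From 14.8% to 20.5% of all rows passed in these fits. The batch median ran from 0.044 to 0.121 over these. Quantile normalization passed 8, of which 3 were among the 7, and the plain linear model 5, of which 2 were. Of all rows 21.2% and 11.9% passed there.

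With the replicate number as a block, 0 members passed between genotypes and 1.51% of all rows did. Same-numbered cultures deviated from their group means with correlations of -0.32 in batch 1 and 0.30 in batch 2 over all rows, and 2 of 4 cultures matched their own number best. The numbers were not taken to pair the samples beyond batch.

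Of 542 values of named rows between batches under alternatives, 486 kept their side of the threshold, 45 no longer passed, 11 newly passed and none that passed reversed. Counting rows with identical values once, chosen after seeing the data, left 7.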
